A study of Homo sapiens with 6 samples.

Results

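The genes described here are the 4 ID genes (ID1, ID2, ID3 and ID4), the inhibitory SMADs SMAD6 and SMAD7, the ubiquitin ligases SMURF1 and SMURF2, the ligand BMP4 and the pseudoreceptor BAMBI, 10 genes in all of 17185 named genes measured. They were taken by gene symbol from the array's annotation, and each gene is represented by its brightest transcript record over the 6 arrays. The 10 genes had 11 records among 45033 on the array, since ID1 had 2. The samples were cultures of the triple-negative human breast cancer line MDA-MB-231, an established cell line, either without drug (0 μM, 3 control arrays) or with DCC-2036 at 3.75 μM (3 arrays), all collected at 48 h in experiments that the labels call independent. DCC-2036, or rebastinib, is a kinase inhibitor aimed at ABL1 that also acts on TEK and some other tyrosine kinases. The comparison asks which transcripts differ between treated and untreated cells.

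Bone morphogenetic proteins (BMPs) are secreted ligands of the TGF-beta superfamily that bind pairs of serine/threonine kinase receptors, and the receptors phosphorylate SMAD proteins that enter the nucleus with SMAD4. ID1, ID2 and ID3 are among the most direct target genes of BMP-activated SMADs, and their proteins lack a DNA-binding region, so they hold basic helix-loop-helix factors such as the E proteins away from DNA. SMAD6 and SMAD7 are induced by the same pathways and damp them, SMAD6 mainly the BMP branch and SMAD7 both branches. SMURF1 and SMURF2 attach ubiquitin to SMADs and receptors, and BAMBI resembles a receptor without the kinase part.

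With DCC-2036, ID1, ID2, ID3, SMAD6 and BMP4 were higher and SMURF1 and SMURF2 were lower. ID4, SMAD7 and BAMBI did not pass the test. The test was limma's moderated test on log2(intensity + 1), fitted across all 17185 genes, with a Benjamini-Hochberg adjusted p under 0.05 as the threshold, and the log2 changes below are treated minus control with their standard error. Of the 10 genes 5 were higher, where 13.1% of all genes were, and 2 were lower, where 16% of all genes were. In 5 genes all 3 treated arrays lay above all 3 control arrays and in 2 genes all lay below, against 22.2% and 24.3% of all genes. The 5 became 3 without control array 2, and the 2 became 1 when any single array other than treated array 2 was left out. The median log2 change was 0.50 over the 10 genes and 0.02 over all genes. No gene set was tested, so nothing particular to these genes follows from the counts.

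Array medians lay between 264.6 and 273.7 intensity units, and correlations of log2 values across genes were 0.964 to 0.978 between arrays of a group and 0.929 to 0.937 between groups. Of the markers fixed for the line, VIM, MSN and CAV1 lay at the 98.9th, 97.5th and 95.5th percentile of genes in the control arrays, CD44 at the 80.5th and SPARC at the 68.4th. ESR1, PGR, CDH1 and KRT14 lay at the 21.8th percentile or below, whereas GATA3, also listed as a marker that should be dim, lay at the 59.8th. With 3 arrays per group, the number of arrays limits the precision of every value. The arrays measure RNA of whole cultures, so fewer cells of a kind and less RNA per cell cannot be told apart.

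The stretches of 250 bases before the transcription start are shown for ID1, ID2, ID3 and SMAD6, which each rose, and for SMURF2, which fell the most of the 10. BMP4, which also rose, is not shown. The stretches are printed 5′ to 3′ along the gene's strand, from RefSeq on GRCh38.p14. Capitals mark GTCT or its complement AGAC, the short box that SMAD proteins bind, and would also mark GGCGCC, a GC-rich element of BMP target genes, which is in none of these 5 stretches.
ID1, chr20:31605039-31605288, plus strand: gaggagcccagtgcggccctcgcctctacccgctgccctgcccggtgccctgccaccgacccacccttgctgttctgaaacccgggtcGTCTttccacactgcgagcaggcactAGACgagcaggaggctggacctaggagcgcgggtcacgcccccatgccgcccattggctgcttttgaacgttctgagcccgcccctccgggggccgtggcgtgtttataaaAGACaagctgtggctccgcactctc
ID2, chr2:8681806-8682055, plus strand: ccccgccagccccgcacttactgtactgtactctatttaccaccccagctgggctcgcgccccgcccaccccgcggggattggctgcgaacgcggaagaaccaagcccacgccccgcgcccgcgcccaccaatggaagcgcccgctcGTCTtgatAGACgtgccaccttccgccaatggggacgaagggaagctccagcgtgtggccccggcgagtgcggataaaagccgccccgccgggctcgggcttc
ID3, chr1:23559502-23559751, minus strand: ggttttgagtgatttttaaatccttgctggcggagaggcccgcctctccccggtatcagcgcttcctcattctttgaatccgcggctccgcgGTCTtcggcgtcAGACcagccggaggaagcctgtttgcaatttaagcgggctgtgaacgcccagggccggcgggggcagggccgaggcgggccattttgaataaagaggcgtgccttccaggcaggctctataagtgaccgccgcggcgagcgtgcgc
SMAD6, chr15:66701986-66702235, plus strand: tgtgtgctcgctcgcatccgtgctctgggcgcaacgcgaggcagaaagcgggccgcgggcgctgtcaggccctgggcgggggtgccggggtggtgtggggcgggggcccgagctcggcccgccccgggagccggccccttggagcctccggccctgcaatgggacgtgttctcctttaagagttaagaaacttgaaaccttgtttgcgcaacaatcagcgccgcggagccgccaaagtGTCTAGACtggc
SMURF2, chr17:64662308-64662557, minus strand: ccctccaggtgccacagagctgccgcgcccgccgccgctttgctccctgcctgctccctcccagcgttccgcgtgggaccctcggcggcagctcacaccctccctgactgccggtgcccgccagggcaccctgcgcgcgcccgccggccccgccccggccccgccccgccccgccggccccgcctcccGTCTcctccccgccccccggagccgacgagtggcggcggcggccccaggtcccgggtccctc

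All 10 genes had a promoter entry, 14 windows in all, 3 each for SMAD7 and BMP4. Searched on both strands, GTCT was found in 77.5% of the 34943 windows in the RefSeq table, so its matches in all 5 stretches above are common. ID1 held 3 matches, the nearest beginning 25 bases before the start, ID2 and ID3 held 2 each, and SMURF2 held 1. Of the genes not shown, SMAD7 held 4, 5 and 1 in its windows, and BMP4 held 2, 0 and 2. BAMBI held 4, SMURF1 held 2 and ID4 held 1. In SMAD6 the 2 matches touched and formed the palindrome GTCTAGAC, beginning 12 bases before the start, a motif present in 64 of the 34943 windows, or 0.183%. The palindrome overlaps the GTCT matches and was added to the search after the sequences had been read. GGCGCC was in 16.4% of windows, and among the 10 genes it occurred once in the first BMP4 window and 3 times in the BAMBI window. The E-box CANNTG, the site of the factors that ID proteins hold, was in 61.8% of windows and in those of ID2, ID4 and SMURF2, and in some of SMAD7 and BMP4. These matches describe letters and not binding.

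Among the ID genes, ID2 changed the most. ID2 read 123, 162 and 191 intensity units in the control arrays, in the order of their replicate numbers here and below, and 359, 362 and 398 with DCC-2036. Every treated array lay above every control array by a wide gap. The means were 159 ± 33.9 and 373 ± 21.6 (SD, n = 3), a log2 change of 1.25 ± 0.20 or 2.38-fold (limma adjusted p = 0.00597).

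ID3 read 684, 609 and 686 in the control arrays and 1171, 1080 and 1210 with the drug. Its groups were narrow and well separated, with means of 659.7 ± 44.2 and 1154 ± 67.1 (SD, n = 3). The log2 change was 0.81 ± 0.14, or 1.75-fold (limma adjusted p = 0.00816).

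ID1 read 585, 586 and 575 in the control arrays and 821, 921 and 1045 with DCC-2036. The 3 control values were nearly equal, the treated values were more scattered, and the groups did not overlap. The means were 582 ± 6.04 and 929 ± 112 (SD, n = 3), a log2 change of 0.67 ± 0.15 or 1.59-fold (limma adjusted p = 0.0192). The second record of ID1 read 456, 396 and 499.5 in the control arrays and 734, 839 and 567 with the drug, also without overlap. Its log2 change was 0.65 ± 0.20, close to that of the first record, and it did not pass (limma adjusted p = 0.0565 over all records). The ID1 call itself was lost without control array 1, 2 or 3 or treated array 2 or 3, with log2 changes of 0.58 to 0.67 and adjusted p of 0.0528 to 0.0614 in limma.

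ID4, whose product differs from the other ID proteins in its long alanine- and proline-rich ends, was dim. It read 79.6, 21.7 and 22.5 in the control arrays and 19.97, 22.02 and 51.05 with DCC-2036, and its mean over the arrays was at the 11.1th percentile of genes. One array in each group stood above the others and the groups overlapped. The log2 change of -0.26 had a 95% confidence interval of -1.69 to 1.17 (limma adjusted p = 0.779), and without control array 1 it was 0.34. The table has no detection call, so a dim gene could not be called absent. The changes of ID1 and ID3 lie inside this interval and that of ID2 just outside it.

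**Figure D1:**
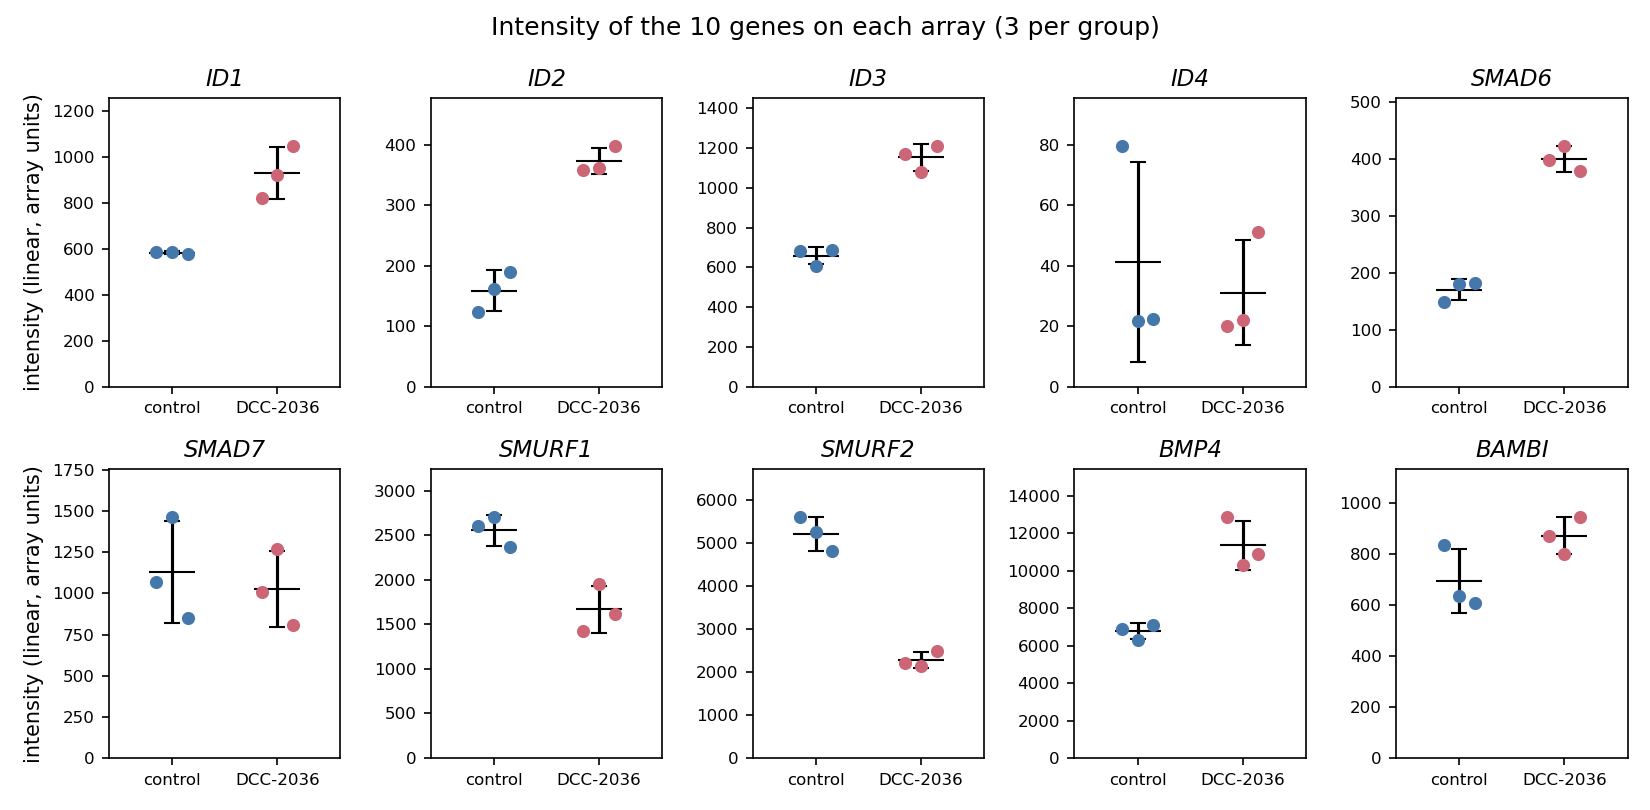
Each panel shows 1 gene, with the intensity on a linear axis from 0 for 3 control arrays (blue) and 3 DCC-2036 arrays (red), and the bar and whiskers give the mean and SD. ID1, ID2, ID3, SMAD6 and BMP4 have all treated arrays above the control arrays, SMURF1 and SMURF2 have all below, and ID4, SMAD7 and BAMBI overlap.

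Of the 2 inhibitory SMADs, SMAD6 rose and SMAD7 did not pass the test. SMAD6 read 149, 180 and 181 in the control arrays and 399, 423 and 379 with DCC-2036. No treated array came near the control range, and the means were 170 ± 18.4 and 400.1 ± 22.03 (SD, n = 3). The log2 change was 1.23 ± 0.15, or 2.35-fold (limma adjusted p = 0.00288).

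SMAD7 read 1071, 1462 and 853 in the control arrays and 1009, 1270 and 809.5 with the drug. Both groups spread widely and covered nearly the same range. The log2 change was -0.12, with a 95% confidence interval of -0.76 to 0.51 (limma adjusted p = 0.764), so a fall to 0.592-fold or a rise of 1.43-fold remain within the interval. It turned to 0.08 without control array 2 and 0.04 without treated array 3.

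Both SMURFs fell. SMURF2 read 5594, 5255 and 4806 in the control arrays and 2199, 2147 and 2498 with DCC-2036. The lowest control array was well above the highest treated one. The means were 5219 ± 395 and 2281 ± 189 (SD, n = 3), a log2 change of -1.19 ± 0.14 or 2.29-fold lower (limma adjusted p = 0.00289).

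SMURF1 read 2604, 2699.9 and 2363 in the control arrays and 1427, 1956 and 1616 with DCC-2036. The groups did not overlap, though the treated arrays were spread, with means of 2555 ± 174 and 1666 ± 268 (SD, n = 3). The log2 change was -0.63 ± 0.17, or 1.54-fold lower (limma adjusted p = 0.0357). This call was lost without control array 1, 2 or 3 or treated array 1 or 3, with log2 changes of -0.68 to -0.52 and adjusted p of 0.0655 to 0.102 in limma.

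BMP4, the one ligand among the 10 genes, had a bright record. It read 6920, 6317 and 7114 in the control arrays and 12863, 10341 and 10881 with the drug. All treated arrays lay above the controls, with means of 6784 ± 416 and 11361 ± 1328 (SD, n = 3). The log2 change was 0.74 ± 0.15, or 1.67-fold (limma adjusted p = 0.0147), and without control array 2 it was 0.69 and did not pass (adjusted p = 0.0512 in limma).

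BAMBI, itself a target of BMP and TGF-beta signalling, read 837, 637 and 608 in the control arrays and 871, 799 and 944 with DCC-2036. The brightest control array lay inside the treated range. The log2 change was 0.34 ± 0.18 with a 95% confidence interval of -0.09 to 0.77 (limma adjusted p = 0.205).

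**Figure D2:**
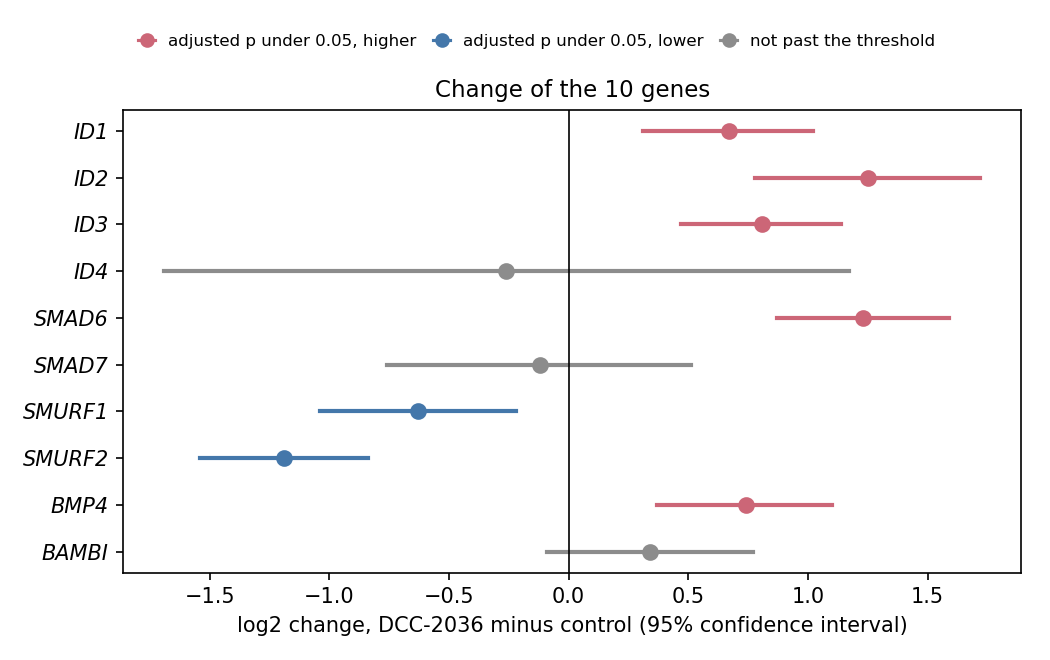
Points give the log2 change (DCC-2036 minus control) of each of the 10 genes and lines its 95% confidence interval from limma, coloured by the call. SMURF2 at -1.19 and ID2 at 1.25 mark the ends, and the intervals of ID4, SMAD7 and BAMBI cross 0.

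The genes of 5 chosen pairs were compared within each array, which shows whether 2 genes changed unequally and says nothing about their relative levels. Each ratio change is the difference of 2 log2 changes given above, so it is no independent result. With 3 arrays on each side the smallest p of the exact two-sided permutation test is 0.1, so no pair could pass 0.05. The log2 ratio of SMAD6 over SMAD7 was -2.84, -3.01 and -2.23 in the control arrays and -1.34, -1.58 and -1.09 with DCC-2036. The groups did not overlap, and the ratio changed by 1.35 (exact permutation p = 0.1, adjusted p = 0.125 over 5 pairs).

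The SMURF1 over SMURF2 ratio was -1.10, -0.96 and -1.02 in the control arrays and -0.62, -0.13 and -0.63 with the drug, a change of 0.57 without overlap (exact permutation p = 0.1). The ID1 over ID2 ratio changed by -0.58 and ID2 over ID3 by 0.45, both without overlap (exact permutation p = 0.1 each, adjusted 0.125). Without control array 1 the ID2 over ID3 change was 0.25. ID1 over ID3 changed by -0.14, its groups overlapped and the exact permutation p was 0.5. Without treated array 1 the ID1 over ID3 change was -0.04.

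**Figure D3:**
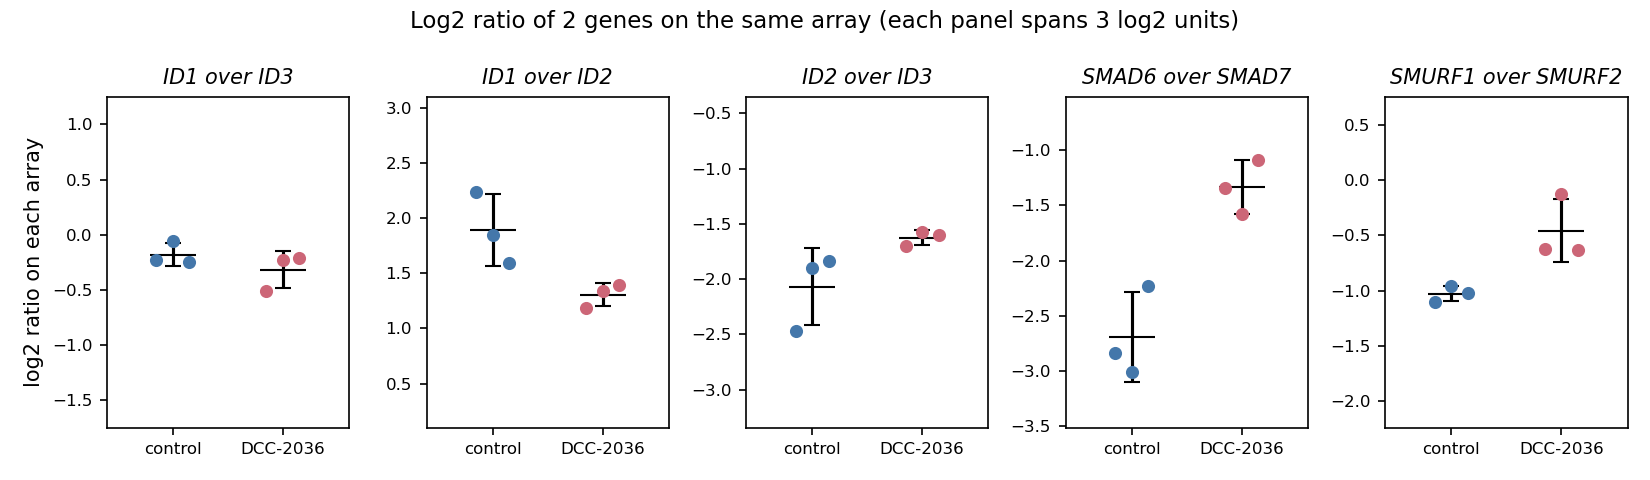
Each panel shows the log2 ratio of 2 genes on the same array for 3 control (blue) and 3 DCC-2036 (red) arrays, with the mean and SD. The SMAD6 over SMAD7 ratio shifts by 1.35, and ID1 over ID3 is the one pair whose groups overlap.

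The rest of the BMP and SMAD pathway was read from 7 lists holding 97 genes, of which 96 were measured and 1, USP11, was not analysed here. Of these, 11 rose, 17 fell and 68 did not pass, shares of 11.5% and 17.7%, and their median log2 change was -0.04. These shares lie near those of all genes, 13.1% higher and 16% lower. The 11 were 7 without control array 2. The lists were chosen with earlier results of these data known, and no list was tested as a set.

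Secreted antagonists, which bind BMPs or activins outside the cell, had 6 of 17 lower, 2 higher and 9 that did not pass. Their median was -0.25, and the shares were 35.3% lower and 11.8% higher, where 16% and 13.1% of all genes were. CRIM1, a membrane protein that binds BMPs, read 1967.5, 1873 and 1958 in the control arrays and 489, 381 and 412 with DCC-2036 (-2.18 ± 0.15, limma adjusted p = 0.000853). FSTL1, a secreted follistatin-like glycoprotein, read 2278, 2361 and 2504 against 292, 195 and 356 (-3.12 ± 0.24). FST, follistatin, which captures activins, read 3860, 3545 and 3925 against 1309, 930 and 1097 (-1.78 ± 0.17). In all 3 genes the treated arrays were far below the controls. The other lower members, named after their values were seen, were SOST, FSTL3 and TWSG1, with log2 changes of -2.27, -1.12 and -1.03. The 2 higher ones, also named afterwards, were NBL1, at 1.36, and SOSTDC1, at 2.37 from a dim control mean of 31.2. NOG and CHRD, the classic BMP antagonists noggin and chordin, changed by 0.46 and 0.73 and did not pass (limma adjusted p = 0.214 and 0.0628).

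Of 22 other BMP, GDF and activin ligands, 1 rose, 2 fell and 19 did not pass, with a median of 0.21. That is 4.55% higher and 9.09% lower, against 13.1% and 16% of all genes. GDF15, a stress-induced ligand, read 1425, 1401 and 1297 in the control arrays and 774, 778 and 884.5 with the drug (-0.76 ± 0.14, limma adjusted p = 0.00994). BMP5 fell by 1.24 on the log2 scale, with the call lost without control array 1 or 2 or treated array 1 or 2 (-1.23 to -1.06). BMP10 rose by 1.16 ± 0.25, from 20.7 to 48.6, both dim, with the call lost without control array 1 (1.18) or control array 3 (1.05). The ligand counts shifted with single arrays: 4 were higher without treated array 1 and 0 without control array 1 or 3, and 1 was lower without control array 1 or 2 or treated array 1 or 2. With a block for the replicate number 0 were lower, as GDF15 and BMP5 did not pass (limma adjusted p = 0.0501 and 0.0662).

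Among 17 receptors and co-receptors, 4 rose, 1 fell and 12 did not pass, with a median of 0.11. That is 23.5% higher and 5.88% lower, against 13.1% and 16% of all genes. TGFBR3, betaglycan, a co-receptor that presents TGF-beta ligands, read 1919, 2370 and 2123 in the control arrays and 4681, 4731 and 5730 with DCC-2036 (1.24 ± 0.16, limma adjusted p = 0.00356). ACVR2B, a type II activin receptor, fell by 1.21 on the log2 scale (limma adjusted p = 0.013). ACVR1C, a type I receptor, rose by 0.69 from a dim 15.7, and its call was lost without control array 1 (0.61), control array 2 (0.71) or treated array 3 (0.60) and with 16 added before the log (0.41). It was also lost with limma's trend and robust options and with a block for the replicate number (limma adjusted p = 0.129 and 0.0567). The other higher ones, named after their values were seen, were ACVR1B (1.11, with 0.65 for a second record that did not pass) and ACVR2A (1.21). With the mean of its records ACVR1B changed by 0.59 and did not pass (limma adjusted p = 0.0535). ACVR1B was lost without control array 2 or 3 or treated array 1 or 3 (0.96 to 1.06), and ACVR2A without control array 2 or 3 or treated array 1 or 2 (0.95 to 1.30). The count of 4 was 1 without control array 2 and 2 without control array 3 or treated array 3, and the 1 lower receptor became 2 without control array 3 or with quantile normalization again, 3 with limma's trend and robust options and 4 with the dimmest 25% of genes left out. The BMP receptors BMPR1A and BMPR2, singled out afterwards, changed by -0.53 and -1.04 and did not pass (limma adjusted p = 0.0704 and 0.0661), but did with the dimmest 25% of genes left out (0.041 and 0.0417), and BMPR2 also without control array 3 (-1.35).

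SMAD3, which carries TGF-beta and activin signals, was the one of 6 receptor-regulated and common SMADs that passed, from 3743, 3787 and 4030 in the control arrays to 1556, 1927 and 1904 with the drug (-1.11 ± 0.15, limma adjusted p = 0.00396). SMAD1, a carrier of BMP signals, changed by -0.78 and did not pass (limma adjusted p = 0.0803). SMAD2, SMAD4 and SMAD5 changed by 0.15, -0.28 and -0.15, and none of them passed. SMAD9, dim at a control mean of 27.5, changed by 1.25 and did not pass (limma adjusted p = 0.135). Of the 6, 16.7% were lower and 0% higher, against 16% and 13.1% of all genes, so the share lower was near that of all genes. The list's median was -0.22, and without control array 3 there was 1 higher member in place of 0.

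Of 18 corepressors, ubiquitin enzymes and a phosphatase that act on SMADs, 2 rose, 6 fell and 10 did not pass, with a median of -0.38. That is 11.1% higher and 33.3% lower, against 13.1% and 16% of all genes. NEDD4L, a HECT ligase of the same family as the SMURFs, read 3902, 4838 and 3759 in the control arrays and 871, 551 and 683 with DCC-2036 (-2.58 ± 0.22, limma adjusted p = 0.0011). The related ligase NEDD4 read 1426, 1417 and 1253 against 594, 519 and 517 (-1.33 ± 0.14). TGIF1, a SMAD corepressor, read 2977, 3050 and 3078 against 1660, 1385 and 1585 (-0.98 ± 0.14). The treated arrays were below the controls in each of these genes. LEMD3, TGIF2 and WWP1 were the other lower members, at -1.30, -0.75 and -0.60, where TGIF2 was lost without control array 1 (-0.70) and WWP1 in every leave-out but that of treated array 1 (-0.63 to -0.54). The higher members, named like these after their values were seen, were PMEPA1, an inhibitor of TGF-beta signalling (1.25), and SKI, a corepressor (0.79), whose call was lost without control array 1 (0.73), control array 2 (0.73), treated array 1 (0.67) or treated array 3 (0.78), leaving 1 higher.

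Of 12 other target genes of BMP-activated SMADs, 1 rose, 0 fell and 11 did not pass, with a median of 0.47. The share higher was 8.33%, against 13.1% of all genes. At an unadjusted p under 0.05 in limma, 5 were higher and 0 lower, where 19.5% and 21.5% of all 17185 genes were, and nothing about the list is read from this looser count. ATOH8, a basic helix-loop-helix factor, read 308, 262 and 249 in the control arrays and 544, 593 and 602.5 with DCC-2036 (1.09 ± 0.15, limma adjusted p = 0.00403). MSX1 and MSX2, homeobox factors, changed by 0.85 and 0.62 and did not pass (limma adjusted p = 0.0811 and 0.0579). The count of 1 was 2 without control array 3 and 3 without treated array 1, and without control array 2 there was 1 lower.

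Of 4 genes for E proteins, which ID proteins bind, and for an ID deubiquitinase, 1 rose, 1 fell and 2 did not pass. Their median was -0.52, and with 4 genes the share of 25% each way rests on 1 gene. Of all genes 13.1% were higher and 16% lower. The E protein TCF3 rose, from 202, 261 and 129 in the control arrays to 605.5, 681 and 732.5 with DCC-2036 (1.82 ± 0.27, limma adjusted p = 0.00526). TCF12 changed by -0.36 and did not pass (limma adjusted p = 0.137), and TCF4 was dim. With genes below the median left out TCF12 passed (limma adjusted p = 0.0489), making 2 lower. USP1, a deubiquitinase that removes ubiquitin from ID proteins, read 1960, 1510 and 1729 in the control arrays and 825, 671 and 705 with the drug, and fell by 1.24 ± 0.17 on the log2 scale (limma adjusted p = 0.00395). In both genes the groups were clearly apart.

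**Figure D4:**
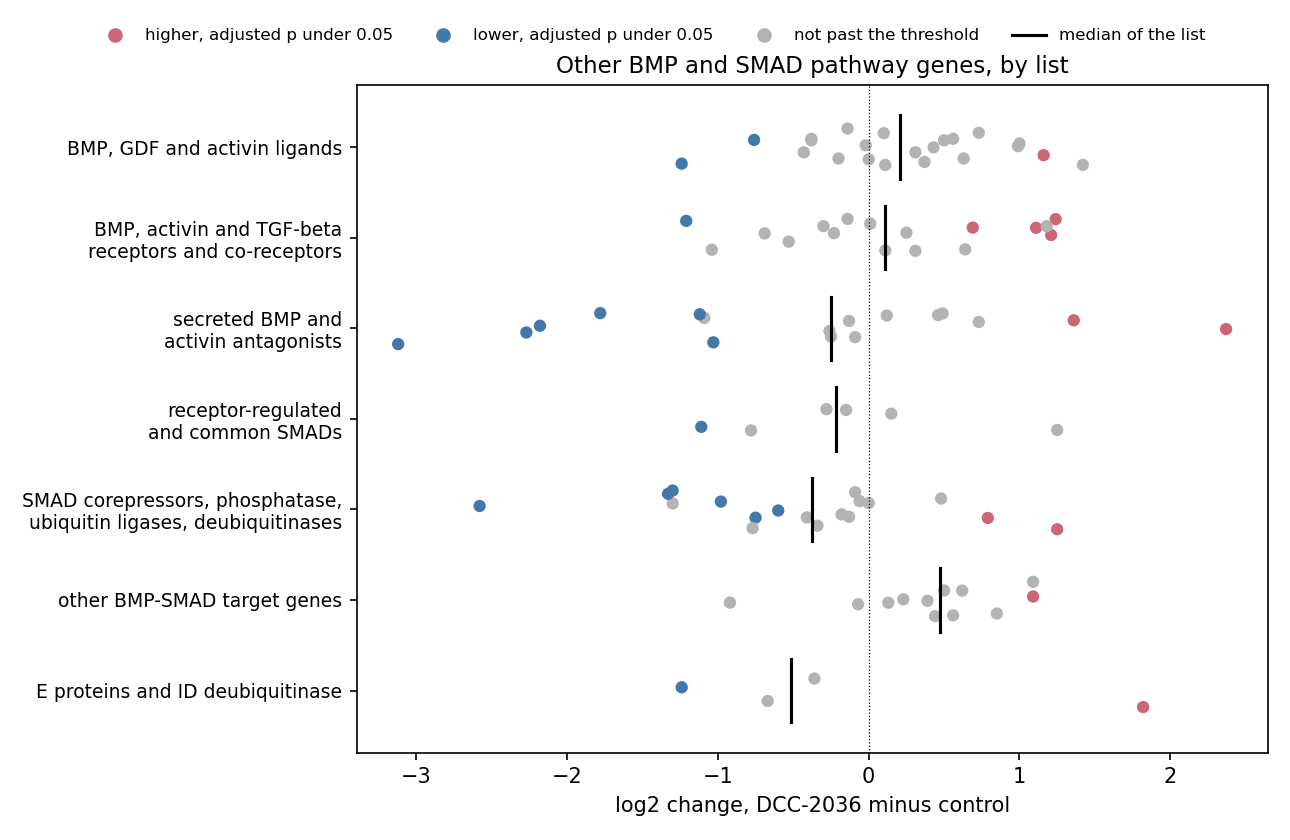
Each point is the log2 change (DCC-2036 minus control) of a gene in 1 of 7 lists, coloured by the limma call, with the list's median as a black line. The antagonists reach from -3.12 to 2.37. The median is highest in the other BMP-SMAD target genes, at 0.47, where 1 of 12 genes passed.

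Profiles over the 6 arrays were compared by the root mean square difference of log2 values, each gene centred on its own mean, as a description. ID2 was closest to DENND2B, FKBP8 and MXD4 (0.0593, 0.0760 and 0.0818), and SMAD6 to PLPP4, KRTAP19-1 and DHRS7 (0.0572 to 0.0709). ID3 was closest to CUTC, ABL1 and LPCAT4 (0.0281 to 0.0450), where ABL1 is a target kinase of the drug and changed by 0.79 (0.50 with its second record, not passing). ID1 was closest to LAPTM4B, CGB7 and FEM1B (0.0368 to 0.0463), and CGB7 has near-identical copies whose signals cannot be told apart. BMP4 was closest to RPLP2, DRC5 and CDC34 (0.0388 to 0.0610), SMURF2 to GPN3, GTF2H2 and TXNRD1 (0.0540 to 0.0588), and SMURF1 to TRMT2B, SAA4 and ZFYVE16 (0.0549 to 0.0642), of which TRMT2B and ZFYVE16 did not pass the test.

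None of the 7 genes that passed had another of the 10 among its 3 closest profiles. The closest profiles of ID4, SMAD7 and BAMBI were not sought, but these genes were included when the nearest of the 10 was found. The nearest of the 10 to ID2 was SMAD6, in place 37 of all genes, with a difference of 0.135, and the nearest to SMAD6 was ID2, in place 78. BMP4 had ID3 in place 37 and ID3 had BMP4 in place 53, at 0.0923. ID1 had ID3 in place 278 (0.135). The 2 SMURFs were far apart, with SMURF1 in place 1901 for SMURF2 and SMURF2 in place 3746 for SMURF1 (0.330). The difference includes the treatment change, so unequal log2 changes alone set 2 profiles apart.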

How the data were processed

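Total RNA of 6 MDA-MB-231 cultures was primed with oligo dT, labelled with Cy3 and hybridized to one-colour NimbleGen arrays, per the labels' protocols. The deposited values are one linear intensity per transcript record and array, made by the authors with RMA, per the submitters' processing notes. How background was corrected and which build the probes follow is not given in the sources used here. Intensities ran from 8.03 to 65365 and were used as deposited, and no detection call, slide or scan label was at hand, so no batch could be tested.

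Of 45033 records, 18188 were named by the platform annotation, with 0 naming several genes, and 678 by their RefSeq accession (symbols of GRCh38.p14), while 26167 stayed unnamed. Groups came from the sample titles. limma 3.58.1 in R 4.3.3 (lmFit, eBayes, no covariate) was run on log2(intensity + 1) of each gene's brightest record. Python 3.11.15 with pandas 2.3.3, scipy 1.17.1 and matplotlib 3.10.9 made the tables, exact tests and figures. Replicate numbers were not used to pair the samples, and correlations across genes of same-numbered deviations from the group means were -0.08, 0.04 and -0.09. Such correlations cannot show whether same-numbered cultures were run together. Named were all 10 genes, up to 3 passing genes with the smallest p per pathway list, and for each passing gene the 3 closest profiles. The genes and lists were chosen with earlier results of these data known. Alternatives tried were another normalization, 16 in place of 1 before the log, filters on dim genes, eBayes settings, array weights, other records of a gene, a fit over all records, a replicate block and each array left out.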

Additional observations from a re-analysis of the deposited data

How the results depend on the processing

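Under the 17 alternatives run for each gene that they kept, ID2, ID3, SMAD6 and SMURF2 kept their direction and their call, with log2 changes of 1.08 to 1.40, 0.75 to 0.86, 1.14 to 1.28 and -1.26 to -1.14. ID1 (0.58 to 0.75), SMURF1 (-0.75 to -0.52) and BMP4 (0.65 to 0.80) kept their direction, with calls lost when single arrays were left out, as given above, and ID1 also with its second record (0.65). ID4 ran from -0.67 to 0.34 and SMAD7 from -0.31 to 0.08 with single arrays left out: ID4 turned to 0.34 without control replicate 1, and SMAD7 to 0.08 without control replicate 2 and 0.04 without DCC-2036 replicate 3. With the replicate block 1376 genes were higher and 1793 lower, in place of 2257 and 2745, and of the 10 genes 4 were higher and 1 lower, ID1 and SMURF1 being lost. The log2 changes of ID1 and SMURF1 were the same with the block, at 0.67 and -0.63. Of the pathway genes 8 were higher and 14 lower with the block, in place of 11 and 17. GDF15, BMP5, ACVR1C, ACVR2A, TGIF2, WWP1 and SKI were among the calls lost. Whether same-numbered cultures were run together is not known. Leaving out genes below the median left 3 of the 10 higher, because ID2 and SMAD6 were not tested. With each array left out in turn, 1421 to 1886 genes were higher and 1721 to 2307 lower, the latter lowest without control replicate 1, 3 to 5 of the 10 genes higher (3 without control replicate 2) and 1 to 2 lower, and 7 to 14 pathway genes higher. The causes of these shifts were not tested. The number of arrays limits all values, and brightness over background could not be judged.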

Other observations

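BMP2 and INHBA, the precursor of activin A, were singled out after their values were seen, because DCC-2036 replicate 1 stood apart from the other treated arrays in both. INHBA read 1393, 886 and 1143 in the control arrays and 429, 5590 and 4675 with DCC-2036. It changed by 1.00 and did not pass (limma adjusted p = 0.485), and without DCC-2036 replicate 1 it changed by 2.19 and passed (limma adjusted p = 0.0068). Without DCC-2036 replicate 2 or 3 the INHBA change was 0.34 or 0.47, and neither passed (limma adjusted p = 0.84 and 0.783). BMP2 read 125, 31.8 and 168 in the control arrays and 67.5, 398 and 489 with the drug. It changed by 1.42 (limma adjusted p = 0.301), and by 2.32 without DCC-2036 replicate 1, where it did not pass either (limma adjusted p = 0.0735). The BMP2 change was 0.70 without control replicate 2 (limma adjusted p = 0.616) and 0.90 without DCC-2036 replicate 3 (limma adjusted p = 0.564).

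SMAD7 was also singled out after its values were seen, and how many genes share its order of replicates was not counted. It had its highest reading on replicate 2 and its lowest on replicate 3 in both groups. Each treated array was below the control array of the same number, though the 2 groups overlapped. With the replicate block the SMAD7 log2 change of -0.12 did not pass (limma adjusted p = 0.62).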
